A study of Mus musculus with 4 samples.

Results

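Secreted growth factors are the proteins by which cells instruct their neighbours to divide, survive, migrate or form vessels, and 37 of their genes were followed here in mixtures of liver macrophages and tumour cells. The list was composed by name, with earlier results of these data known. It holds colony-stimulating factors, vascular endothelial and platelet-derived growth factors, angiopoietins and ligands of the epidermal growth factor receptors. Fibroblast growth factors, neurotrophic factors and members of the transforming growth factor beta superfamily are also in it. Of the 37 genes, 35 were measured by 64 probe sets that the platform annotation gives to their symbol alone, out of 18193 named genes and 45037 probe sets on the array. Areg and Gdf15 had 0 such probe sets and were not analysed here.

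The arrays compared Kupffer cells, which are liver-resident macrophages, with and without contact to SL4, a colon carcinoma line of mouse. The donors were C57BL/6 females aged 12 weeks, either wild type or Clec4n-/-, that is, lacking the receptor Dectin-2. Their Kupffer cells were sorted as CD45+ CD11b+ cells that also carried the macrophage antigen encoded by Adgre1. SL4 cells carried no engineered allele by the labels and were the same line in each group. The 4 groups were wild-type Kupffer cells with SL4 in separate culture, Clec4n-/- Kupffer cells with SL4 in separate culture, and the same 2 pairings in co-culture, each for 8 hours with 100000 cells of each type. RNA of the separately kept cells was mixed before labelling, so all 4 arrays hold RNA of both cell types, and the source of a transcript is not resolved. The number of mice behind an array is not stated, and each group had 1 array.

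Growth factors act by binding receptors on the cell surface, most of them tyrosine kinases that switch on the ERK and PI3 kinase cascades, while activins and bone morphogenetic proteins signal through serine kinases and Smad proteins. Many are made as precursors that proteases must release, and their signals are limited by antagonists and by feedback proteins such as Sproutys. In the liver, Csf1 maintains Kupffer cells, Hgf drives the growth of hepatocytes, and Vegfa supports the sinusoidal vessels.

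Values are MAS5 signals, a background-subtracted intensity per probe set. A gene is represented by its brightest probe set, and a signal of 76.1, the median taken over all probe sets and arrays, served as the floor. Values at or under the floor have no order, and a fold against such a value is a lower bound, written as "at least". Median signals of the arrays ran from 72.5 to 78.4, and 10117 to 10187 genes per array lay above the floor. Clec4n itself read 14.2 and 17.6 in the wild-type arrays and 8.29 and 8.19 in the knockout arrays, all under the floor, so these values do not check the deletion, and where the probe set lies relative to the deleted part is not given in the sources used here. Of 18 Kupffer cell markers 17 were measured and 7 lay above the floor. Adgre1, the gene of the antigen used in the sort, read 16.8 to 35.8, and Clec4f and Timd4 also stayed under the floor throughout. Of 12 epithelial markers 10 lay at or under it in all 4 arrays. Of 14 fibroblast and stellate cell markers 9, such as Sparc and Col3a1, lay above it in at least 1 array. The other 5, Col1a1, Col1a2, Dcn, Lum and Lrat, lay under it in all 4 arrays. Of 6 measured hepatocyte markers 4 lay above the floor in at least 1 array, with Alb at 324 to 347. Of 9 sinusoidal endothelial markers 1 did so, Eng. Markers of neutrophils, T and NK cells and B cells, 17 in all with a probe set, lay at or under the floor in all 4 arrays.

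Growth factor genes divided almost evenly at the floor. In at least 1 array 17 of the 35 lay above it and 14 did so in all 4, against 58.5% and 53.5% of all genes. The member just above was Hgf, with a highest signal of 84.5, and the member just under was Angpt1, at 71.0. The other 16 members under the floor peaked between 5.35 and 66.7. Csf2 and Csf3, which drive granulocyte and macrophage production, read 3.93 to 17.9 and 1.16 to 9.24 over the 4 arrays. Pdgfb read 3.46 to 21.5. The ligands of the EGF receptor family read 7.11 to 14.1 for Ereg, 21.3 to 40.7 for Tgfa, 31.0 to 60.5 for Egf and 7.31 to 14.4 for Nrg1.

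Among the fibroblast growth factors under the floor, Fgf2 came closest, at 43.0 to 66.7. Fgf9 read 4.76 to 36.4, and Fgf18 1.04 to 20.3. Fgf5, Fgf10, Fgf13 and Fgf21 had highest signals of 11.6, 14.5, 9.02 and 14.2. Gdnf, a neurotrophic factor, read 1.89 to 5.35, and the bone morphogenetic proteins Bmp2 and Bmp4 read 0.449 to 7.63 and 0.614 to 12.1. At this signal none of these genes allows a comparison between the arrays, which is not to say that they are absent.

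**Figure D1:**
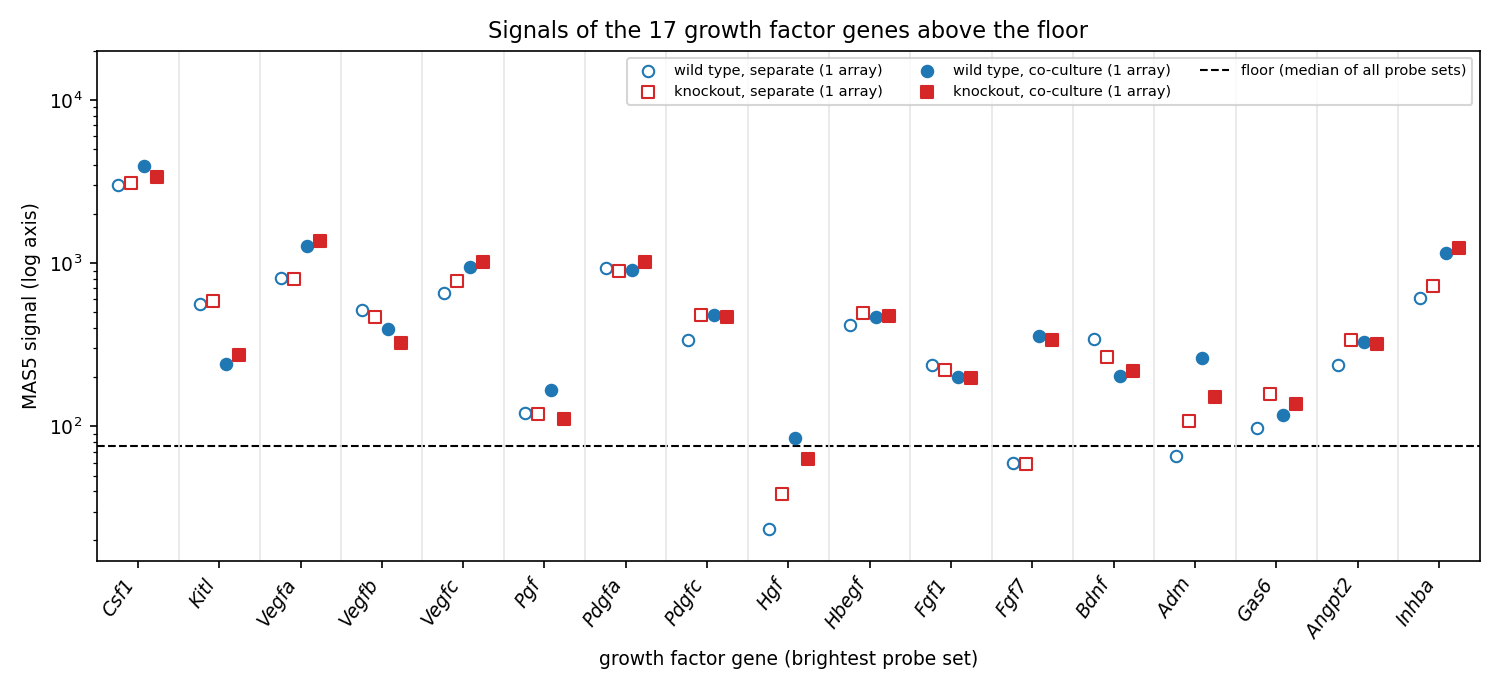
MAS5 signal on a log axis of the 17 growth factor genes that lay above the floor in at least 1 array, with 1 point per array; open symbols are separate culture, filled symbols co-culture, circles wild type and squares knockout. Fgf7 lies under the dashed floor of 76.1 in both separate arrays and at 336 and 360 in the co-culture arrays, and Kitl is lower in both co-culture arrays.

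Co-culture moved a small set of growth factors, and mostly in both genotypes. Fgf7, a mitogen of epithelial cells also called keratinocyte growth factor, was at least 4.73-fold higher with wild-type and at least 4.42-fold higher with knockout Kupffer cells. Inhba, which encodes the subunit of activin A, Vegfa and Vegfc, the vessel growth factors, and Adm, the vasodilator peptide adrenomedullin, were also higher. Kitl, the stem cell factor that binds the receptor Kit, was 2.35-fold lower in wild type and 2.15-fold lower in knockout.

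These changes were tested in a limma fit over the 4 arrays with genotype as a block, in which a constant difference between the genotypes is removed and the difference between their co-culture changes is the error, with 1 residual degree of freedom, moderated over all genes. It therefore speaks of a change that both genotypes share, and its p-values measure the spread between these arrays, which may be technical. Of 17 members, 5 rose and 1 fell at an adjusted p under 0.05, and 11 did not pass. Over all 10637 genes tested, 2.55% were called higher and 3.83% lower, 6.37% in all. Because the members were chosen with earlier results of these data known, the comparison of these shares is not independent of the data. At an unadjusted p under 0.05 limma held 9 of the 17 members and 20.4% of all genes. The median fitted log2 ratio of the 17 was 0.18, against -0.01 over all genes. Without an intensity trend in the variance prior only Fgf7 and Kitl were called, so that the calls of Vegfa, Vegfc, Inhba and Adm depend on that choice.

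Counted by size within each genotype, Fgf7 and Adm were at least 2-fold higher in wild type, where 0.701% of all genes were, and Kitl was the single member at least 2-fold lower, against 0.538% of all genes, or 1.24% in either direction. In knockout Fgf7 was the single member at least 2-fold higher, against 0.67%, and Kitl again the single one at least 2-fold lower, against 0.574%, or 1.24% in either direction. The median log2 ratio of the members was 0.38 over 17 genes in wild type and -0.06 over 16 genes in knockout, against -0.02 and -0.02 over all genes. Both co-culture arrays lay above both separate arrays for 6 of the 17 members, where 19.6% of all genes did so, and below them for 4, where 25.6% did.

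**Figure D2:**
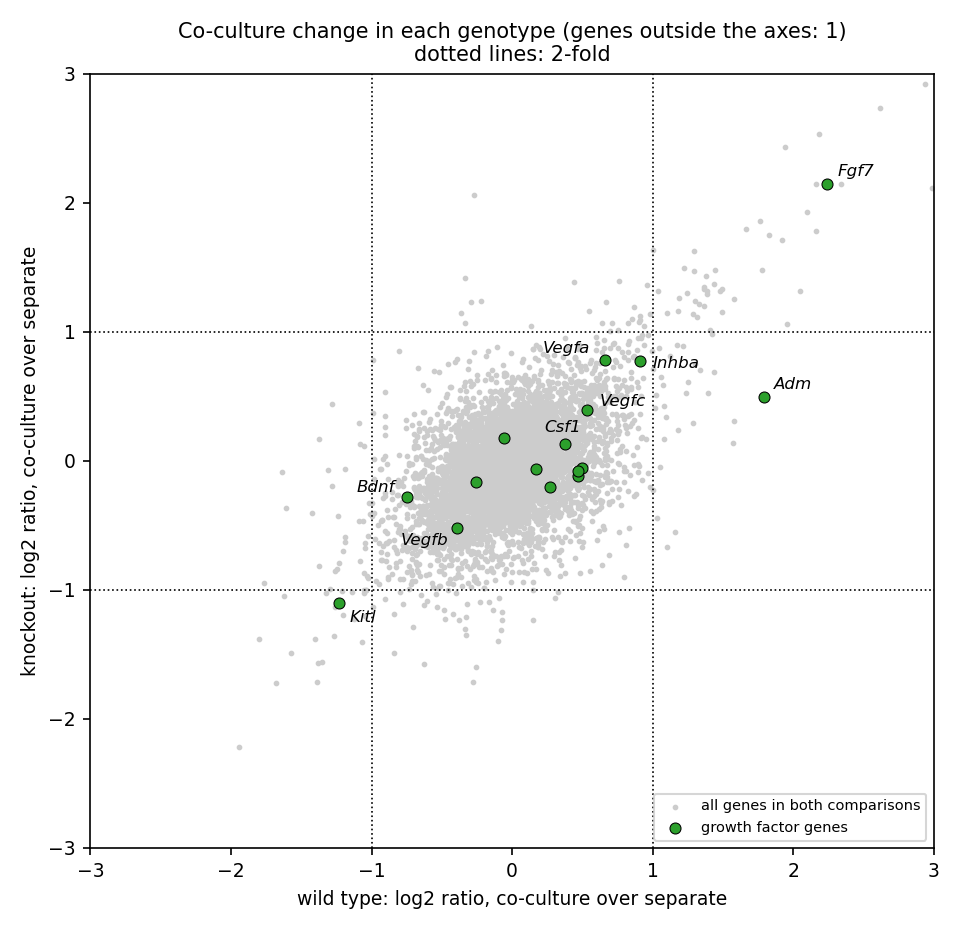
Log2 ratio of co-culture over separate culture in wild type (x axis) and knockout (y axis) for growth factor genes (green) and all genes in both comparisons (grey), with signals raised to the floor and dotted lines at 2-fold. Fgf7 and Kitl lie past 2-fold in both genotypes, and Adm lies past it in wild type alone.

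With signals raised to the floor, Fgf7 showed the largest ratio of the 17 members in both genotypes. Without contact its signal was 60.0 (wild type) and 58.6 (knockout), and in co-culture 360 and 336. Both separate arrays thus lay under the floor and both co-culture arrays well above it, with no overlap. The fitted log2 ratio, with the separate arrays at the floor, was 2.19 ± 0.19 (SE; limma, adjusted p = 2.7e-05). Fgf7 entered the fit through its co-culture arrays alone, so this ratio could only point up. Its error before moderation holds only the difference between the co-culture arrays. The fitted ratio was 1.53 with the median over its probe sets and 1.19 with the floor at 2 times the median. There limma still called Fgf7 (adjusted p = 0.00082 and 0.00017). The dimmer probe set gave 19.0 and 13.2 in separate culture and 128 and 150.5 in co-culture, at least 1.69-fold and at least 1.98-fold higher. The knockout and wild-type co-culture arrays were close, at a log2 ratio of -0.10.

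The bases just before the start of Fgf7 are shown because no other member had as large a ratio. The window ends at the base before the annotated start and was taken from RefSeq, build GRCm38.p6, plus strand, chr2:126034408-126034657; capitals mark the match of a searched motif.
Fgf7: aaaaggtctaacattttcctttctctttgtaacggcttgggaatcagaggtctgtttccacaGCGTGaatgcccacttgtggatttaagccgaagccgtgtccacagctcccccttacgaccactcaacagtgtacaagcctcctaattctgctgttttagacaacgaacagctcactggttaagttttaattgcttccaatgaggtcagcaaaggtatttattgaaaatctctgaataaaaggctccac
Motifs were sought on both strands in the 250 bases before each start: TATAA for the TATA box, ACGTG and GCGTG for the core of the hypoxia response element, TGANTCA for AP-1 and GGG and TTCC with 3 free bases between them for a kappaB-type site. They were held by 22.8%, 16.6%, 28.2%, 6.75% and 4.65% of the 32851 promoter windows of the table. The Fgf7 window held a single match, GCGTG, from 188 to 184 bases before the start. A match is a string of letters, and binding was not measured here.

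Fgfr2, which encodes the receptor isoform that binds Fgf7 in epithelia, did not reach the floor in any of the 4 arrays, at 13.4 to 52.2. Fgfr1, the receptor of many other fibroblast growth factors, read 751 and 742 in separate culture, wild type first as in all pairs that follow, and 819 and 796 in co-culture, with a fitted log2 ratio of 0.11 ± 0.10 (SE; limma, adjusted p = 0.61). Fgf1, a broadly binding family member, read 239 and 222 in separate culture and 200.3 and 198 in co-culture, at -0.21 ± 0.19 (SE; limma, adjusted p = 0.60). A second Fgf1 probe set had 83.6 and 98.1 in separate culture and 88.7 and 81.2 in co-culture, higher in wild-type and lower in knockout co-culture. Of the other 7 fibroblast growth factor genes, 0 reached the floor.

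Vegfa, the main signal for new vessels, was higher in both co-cultures. Its brightest probe set read 806 and 798 in separate culture, against 1277 and 1372 in co-culture. The separate arrays nearly coincided, and both co-culture arrays lay clear of them. The ratio was 1.58-fold with wild-type and 1.72-fold with knockout Kupffer cells, and the fitted log2 ratio 0.72 ± 0.09 (SE; limma, adjusted p = 0.00039). A second probe set went from 331 to 848 in wild type and from 325 to 735 in knockout, which is 2.56-fold and 2.26-fold, so that the size of the Vegfa change differs between its probe sets and its direction does not.

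The window before the upstream start of Vegfa, 1 of 2 in the table, is shown as that of a member that moved with Fgf7. It lies on the minus strand of build GRCm38.p6 at chr17:46032378-46032627, and the sequence is written in the direction of the gene.
Vegfa: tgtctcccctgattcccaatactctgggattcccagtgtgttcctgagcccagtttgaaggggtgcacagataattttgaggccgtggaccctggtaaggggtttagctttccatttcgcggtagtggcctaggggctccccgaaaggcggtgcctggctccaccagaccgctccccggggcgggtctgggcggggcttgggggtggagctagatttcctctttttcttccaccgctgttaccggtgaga
It held 0 matches of the searched motifs, which says only that these letters are not in this window.

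Vegfc, a growth factor of lymphatic vessels, read 654 and 779 in separate culture and 948 and 1022 in co-culture. The groups did not overlap, and the fitted log2 ratio was 0.46 ± 0.10 (SE; limma, adjusted p = 0.018). That probe set carries the suffix _x_at, which marks probes that can match other transcripts, and the annotation lists no accession for it. A dimmer probe set read 105 and 112 in separate culture and 178 and 125 in co-culture, 1.68-fold and 1.12-fold higher. The third had 65.6 and 71.7 in separate culture and 63.3 and 87.5 in co-culture, above the floor in knockout co-culture alone. With the median over its probe sets in place of the brightest, Vegfc had an adjusted p of 0.25 in the same limma fit.

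Vegfb, a family member linked to fatty acid uptake, pointed the other way, at 514 and 466 in separate culture and 392 and 324 in co-culture. Its fitted log2 ratio of -0.46 ± 0.16 (SE) did not pass in limma, with an adjusted p of 0.11. Pgf, placental growth factor, read 120.5 and 120 in separate culture, 166 in wild-type co-culture and 111 in knockout co-culture. The genotypes thus lay on opposite sides of the separate arrays, and the fit gave 0.18 ± 0.20 (SE; limma, adjusted p = 0.70).

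Among the receptors of this family, Flt1, which binds Vegfa, Vegfb and Pgf, read 578 and 488 in separate culture and 241 and 269 in co-culture. It was 2.40-fold lower in wild type and 1.81-fold lower in knockout, with a fitted log2 ratio of -1.06 ± 0.17 (SE; limma, adjusted p = 0.0033). Nrp2, a co-receptor for Vegfc, read 271 and 292 in separate culture and 474 and 414 in co-culture, at 0.66 ± 0.17 (SE; limma, adjusted p = 0.043). The related co-receptor Nrp1 pointed the other way, at 309 and 275 in separate culture and 162 and 199 in co-culture. Its fitted log2 ratio of -0.70 did not pass (limma, adjusted p = 0.057). Kdr and Flt4, the main signalling receptors for Vegfa and Vegfc, lay at or under the floor in all 4 arrays.

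The platelet-derived growth factors, mitogens of mesenchymal cells, had no member past the test. Pdgfa read 940 and 900.2 in separate culture and 904 and 1018 in co-culture, so that the groups overlapped. Pdgfc had its low value, 340, in wild-type separate culture and read 465 to 483 in the other arrays. A second Pdgfa probe set had 608 and 536 in separate culture and 559 and 647 in co-culture, and a second Pdgfc probe set had 212 and 276 in separate culture and 245 and 241 in co-culture. Both Pdgfa probe sets were lower with wild-type and higher with knockout Kupffer cells in co-culture, and both Pdgfc probe sets the reverse. The fitted log2 ratios of the brighter ones were 0.06 ± 0.10 and 0.22 ± 0.17 (SE; limma, adjusted p = 0.79 and 0.53). Pdgfrb, a receptor for these ligands, had a fitted log2 ratio of -0.64 ± 0.20 (SE; limma, adjusted p = 0.088).

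Angpt2, a context-dependent ligand of the vessel receptor Tek, read 236 in wild-type separate culture and 318 to 337 in the other arrays. A second probe set had its low value in another array, 91.4 in knockout separate culture against 159 to 175 elsewhere, so the probe sets disagree on which array stands apart. The brighter had a fitted log2 ratio of 0.19 ± 0.19 (SE; limma, adjusted p = 0.65). Angpt1, which activates Tek, stayed under the floor but read 36.8 and 34.7 in separate culture and 71.0 and 67.6 in co-culture. No fold is given for values under the floor, and its second probe set read 22.5 to 50.4. Tek itself was under the floor in all 4 arrays.

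Inhba was higher in both co-cultures. It read 615 and 723 in separate culture, against 1155 and 1233 in co-culture. The groups did not overlap, and the ratios, 1.88-fold for wild type and 1.71-fold for knockout, lay just inside the 2-fold limit. The fitted log2 ratio was 0.84 ± 0.10 (SE; limma, adjusted p = 0.00024). A second probe set read 1.83 to 3.51, near the bottom of the scale.

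A stretch of 30 bases before a listed start of Inhba held a TATAA match, from 91 to 87 bases before that start. Unlike those of Fgf7, Vegfa and Adm, this start is not the annotated start of the gene. The stretch was read from RefSeq, build GRCm38.p6, plus strand, chr13:16011747-16011776, with the match in capitals.
Inhba: tacaacttctaaaTATAAatctctggcaca
The window also held GCGTG on the other strand, from 169 to 165 bases before the start.

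Fst, which encodes follistatin, the secreted protein that binds and blocks activin, rose as well. It read 263 and 213 in separate culture and 466 and 447 in co-culture, 1.77-fold and 2.10-fold higher, at 0.95 ± 0.18 (SE; limma, adjusted p = 0.0068). Smad7, an inhibitor of this signalling branch, also rose, at 0.43 ± 0.10 (SE; limma, adjusted p = 0.021). The Smad7 value comes from a probe set with the suffix _x_at, as for Vegfc. The activin receptor genes Acvr1b, Acvr2a and Acvr2b did not pass, with fitted log2 ratios of 0.11, -0.19 and 0.30. Inhbb and Inha, the partner subunits of activin B and of inhibin, lay at or under the floor in all 4 arrays.

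Adm was the member whose co-culture ratios lay farthest apart between genotypes. It read 66.3 (wild type) and 108 (knockout) in separate culture, against 263 and 152 in co-culture. Co-culture was at least 3.46-fold higher in wild type and 1.41-fold higher in knockout, and the log2 ratios differed by -1.30 in knockout relative to wild type. It was 1 of 17 members whose ratios differed at least 2-fold between genotypes, against 1.05% of all genes, and with 1 array per group that difference was not tested.

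The shared part of the Adm change had a fitted log2 ratio of 1.14 ± 0.26 (SE; limma, adjusted p = 0.023), and adjusted p-values of 0.069 with quantile normalization and 0.22 without the intensity trend. With the floor at 2 times the median, an alternative added after the data were seen, limma gave 0.39 at an adjusted p of 0.21, the wild-type log2 ratio was 0.79, and the ratios of the genotypes no longer differed 2-fold. The values come from a probe set with the suffix _x_at and no listed accession, and the probe set with an Adm accession read 10.9 and 20.6 in separate culture and 9.75 and 9.24 in co-culture, under the floor. Calcrl, the receptor of adrenomedullin, read 936 to 1043 over the 4 arrays. Its co-receptors Ramp2 and Ramp3 had highest signals of 112 and 81.3, and none of the 3 passed the limma test.

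The 250 bases before the start of Adm, RefSeq build GRCm38.p6, plus strand, chr7:110627407-110627656, are shown for comparison with Fgf7.
Adm: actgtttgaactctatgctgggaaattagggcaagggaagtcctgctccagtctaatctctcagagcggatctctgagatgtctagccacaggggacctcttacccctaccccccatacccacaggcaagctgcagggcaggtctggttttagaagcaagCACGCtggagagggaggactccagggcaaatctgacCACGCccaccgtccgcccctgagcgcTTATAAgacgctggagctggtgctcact
Capitals mark a TATAA match from 27 to 23 bases before the start, with an overlapping one on the other strand, and GCGTG on the other strand from 90 to 86 and from 54 to 50 bases before it. ACGTG, the AP-1 letters and the kappaB-type letters were not found in this window.

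Kitl was lower in both co-cultures. Its brightest probe set read 563 and 585 in separate culture, against 240 and 273 in co-culture. The groups lay far apart, with a fitted log2 ratio of -1.17 ± 0.16 (SE; limma, adjusted p = 0.0010). The other probe sets had 501 and 503 in separate culture and 284 and 266 in co-culture, 358 and 388 in separate culture and 212 and 143 in co-culture, and 267 and 248 in separate culture and 103 and 125 in co-culture. All 4 of its probe sets were above the floor in all 4 arrays and lower in co-culture in both genotypes, by 1.69-fold to 2.60-fold in wild type and by 1.89-fold to 2.71-fold in knockout. Kit, its receptor, lay under the floor, at 0.931 to 7.95.

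Stretches of 30 bases around matches before a listed start of Kitl are shown because Kitl was the member that fell. As for Inhba, this start is not the annotated start of the gene. The stretches were read from RefSeq, build GRCm38.p6, plus strand, chr10:100015659-100015688 and chr10:100015783-100015812. The first holds a kappaB-type match on the other strand, from 152 to 143 bases before that start. The second holds TATAA, from 25 to 21 bases before it.
Kitl, kappaB-type match: ccaacctctgGGAAGATCCCcgcccttcag
Kitl, TATAA match: cgggagggagctgTATAAaaagcgctggcg
GCGTG also occurred, from 62 to 58 bases before the start. Of the 44 windows of the 28 members in the table, 16 held GCGTG, 9 TATAA, 9 ACGTG, 3 a kappaB-type match and 2 the AP-1 letters. Over all windows the shares were 28.2%, 22.8%, 16.6%, 4.65% and 6.75% in the same order.

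Csf1, the growth factor on which macrophages depend, read 3015 and 3104 in separate culture and 3914 and 3390 in co-culture. The groups did not overlap, but the difference was small, at 0.25 ± 0.07 (SE; limma, adjusted p = 0.066), and did not pass. The other probe sets had 2123 and 1824 in separate culture and 2136 and 2032 in co-culture, 960.1 and 992 in separate culture and 1368 and 1309 in co-culture, and 629 and 669.7 in separate culture and 976 and 893 in co-culture. All 4 were higher in co-culture, by 1.01-fold to 1.55-fold in wild type and by 1.09-fold to 1.33-fold in knockout. With the median over these probe sets the adjusted p in limma was 0.045, among genes reaching 4 times the floor 0.0091 and with the floor at 2 times the median 0.048. It was 0.35 without the intensity trend, 0.26 with a common median, 0.095 without a floor and 0.093 with quantile normalization. Csf1r, the receptor that marks macrophages, read 138 and 123 in separate culture and 120.2 and 125 in co-culture, with no change past the test (limma, adjusted p = 0.85).

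**Figure D3:**
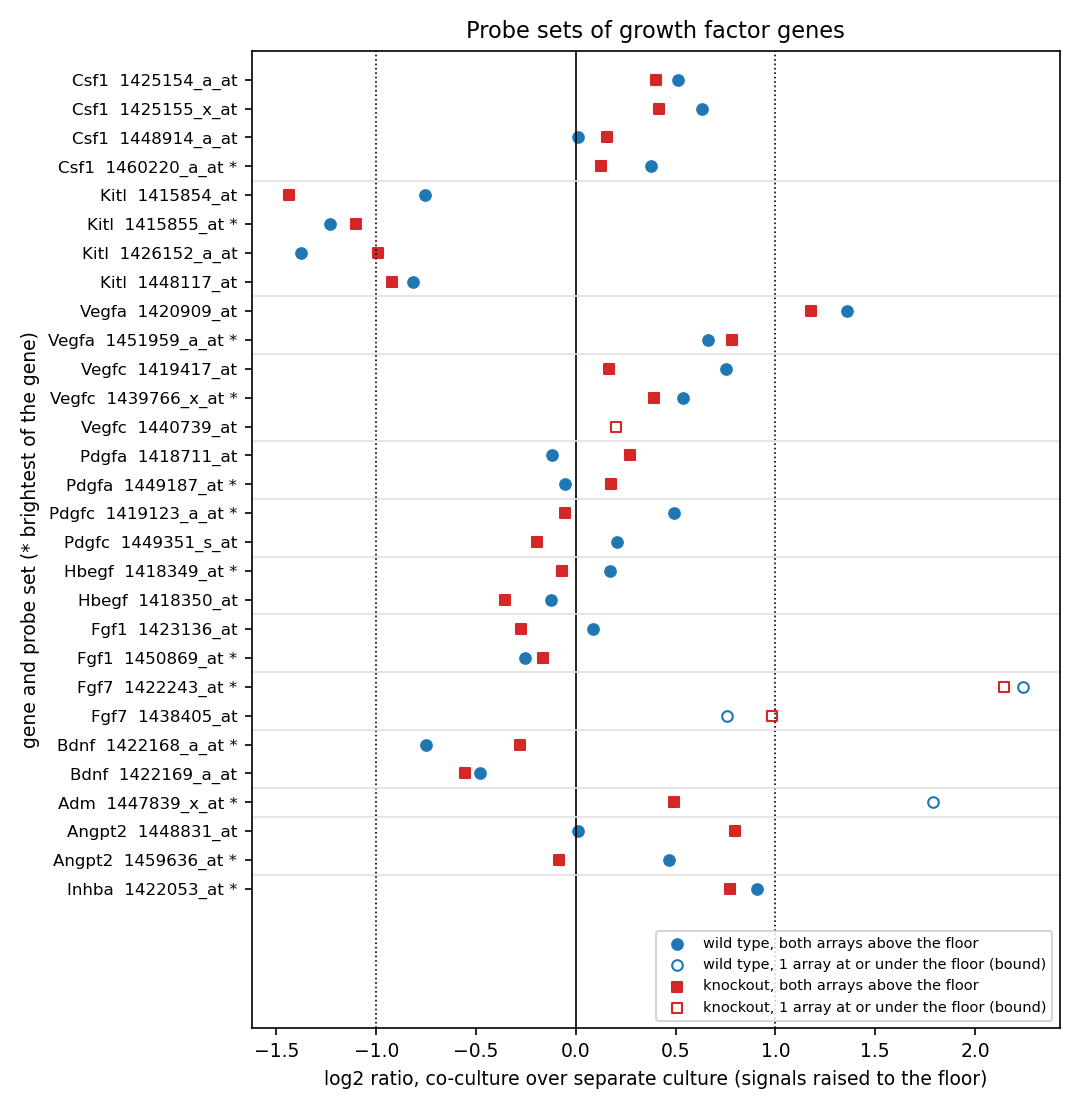
Log2 ratio of co-culture over separate culture for each probe set above the floor of 13 growth factor genes, in wild type (blue circles) and knockout (red squares); open symbols are bounds with 1 array at or under the floor, and stars mark the brightest probe set of a gene. All probe sets of Kitl lie to the left of 0 and all of Csf1, Vegfa and Fgf7 to the right, while those of Angpt2 differ in which genotype is higher.

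Hbegf, a ligand of the EGF receptor with a role in wound healing, was the only EGF family member above the floor. It read 415 and 498 in separate culture and 467 and 475 in co-culture, and the groups overlapped. Its second probe set had 388 and 475 in separate culture and 355 and 372 in co-culture, slightly lower in both co-cultures. The fitted log2 ratio of the brighter was 0.05 ± 0.15 (SE; limma, adjusted p = 0.90). Egfr and Erbb4, its receptors, lay at or under the floor in all 4 arrays, and Erbb3, the partner of Erbb2, read 147 and 118 in separate culture and 59.4 and 64.3 in co-culture, at -0.79 ± 0.19 with the co-culture arrays at the floor (SE; limma, adjusted p = 0.025). Erbb3 entered the fit through its separate arrays alone, so its ratio could only point down. Of the proteases that release EGF receptor ligands, Adam17 and Adam10 had fitted log2 ratios of 0.16 and -0.22 and did not pass.

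Hgf, the ligand of the receptor Met, read 23.4 and 38.3 in separate culture and 84.5 and 63.1 in co-culture. Only wild-type co-culture lay above the floor, at least 1.11-fold higher, and the knockout ratio has both arrays under it. A second probe set read 31.8 to 72.4, and the fit gave 0.08 ± 0.17 (SE; limma, adjusted p = 0.86). Met read 1916 to 2689 over the 4 arrays and did not pass. Bdnf, a neurotrophin, read 342 and 266 in separate culture and 203 and 219 in co-culture, and a second probe set 271 and 239 against 194 and 163. Both probe sets were lower in both co-cultures, and the fitted log2 ratio of the brighter, -0.51 ± 0.20 (SE; limma, adjusted p = 0.16), did not pass.

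Gas6, the bridging ligand of the receptors Axl, Mertk and Tyro3, read 97.7 in wild-type and 159 in knockout separate culture and 118 and 138 in co-culture. Its culture ratio was 0.03 ± 0.20 (SE; limma, adjusted p = 0.95). It was higher in knockout in both culture conditions, with a fitted log2 ratio of knockout over wild type of 0.46 ± 0.20 (SE; limma, adjusted p = 0.49). A second Gas6 probe set read 0.631 to 3.09, under the floor. With the floor at 2 times the median the fitted log2 ratio of knockout over wild type was 0.03.

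That comparison of knockout with wild type, fitted by limma with culture as a block, called 0 of the 17 members. Over all genes it called 0.0282% higher and 0% lower. At an unadjusted p under 0.05 it held 1 member, Gas6, and 9.49% of all genes, and limma without the intensity trend also called 0 members. At 2-fold, 0 members differed between the genotypes in separate culture, where 0.203% of all genes did (0.0869% higher and 0.116% lower), and 0 in co-culture, where 0.24% did (0.144% higher and 0.0962% lower). With 1 array per group these counts do not show that Dectin-2 leaves the members unchanged.

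**Figure D4:**
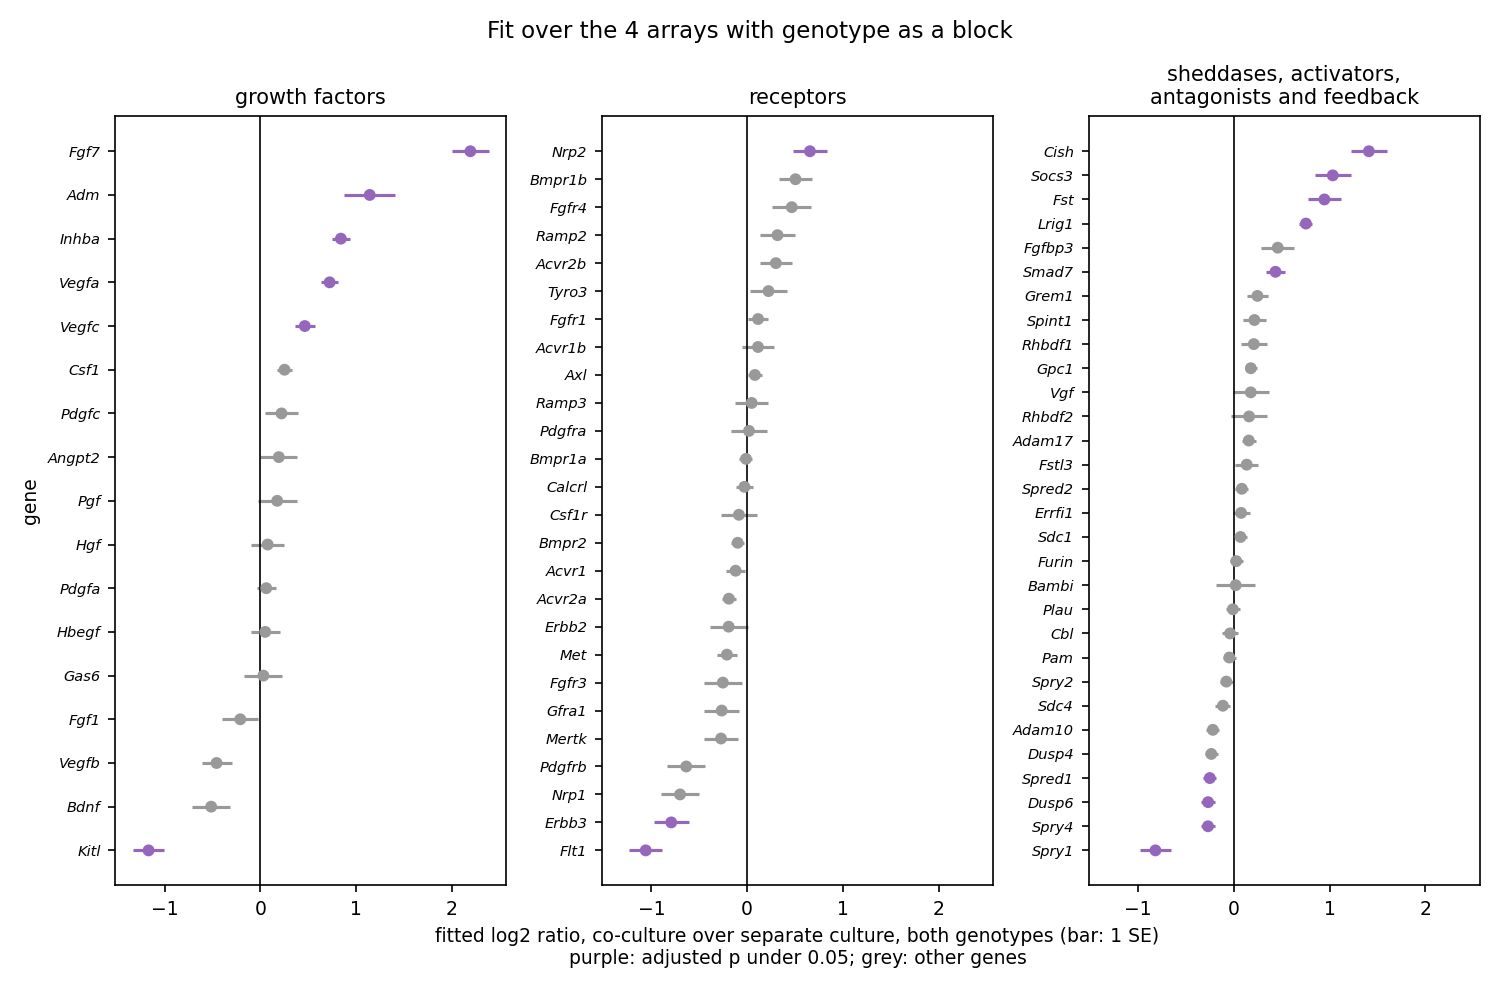
Fitted log2 ratio of co-culture over separate culture with its standard error, from the limma fit over 4 arrays with genotype as a block, for growth factors, their receptors, and sheddases, activators, antagonists and feedback genes above the floor; purple marks an adjusted p under 0.05. Fgf7 is the highest and Kitl the lowest growth factor, Flt1 is the lowest receptor, and Cish and Socs3 are the highest feedback genes.

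Of 42 receptor genes of these ligands 41 were measured and 26 tested, of which 1 rose and 2 fell, with a median fitted log2 ratio of -0.06. Over all genes limma called 2.55% higher and 3.83% lower. The called ones were Nrp2, Flt1 and Erbb3. Of 42 genes for sheddases, activators, antagonists and feedback regulators 41 were measured and 30 tested, of which 5 rose and 4 fell, with a median of 0.08, again beside 2.55% and 3.83% of all genes. The risen ones were Cish and Socs3, inhibitors of cytokine receptor signalling, Fst, Smad7, and Lrig1, which promotes the removal of EGF receptors. Cish read 91.4 and 60.2 in separate culture and 257 and 191 in co-culture, 2.81-fold higher in wild type and at least 2.51-fold in knockout. Socs3 read 74.3 and 89.8 in separate culture and 171 and 167 in co-culture, at least 2.25-fold and 1.86-fold higher. Its probe set carries the suffix _x_at, which marks probes that can match other transcripts.

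Lrig1 read 1503 and 1411 in separate culture and 2506 and 2402 in co-culture, at 0.75 ± 0.07 (SE; limma, adjusted p = 3.2e-05). The fallen ones were Spry1, Spry4, Spred1 and Dusp6, all negative feedback regulators of ERK signalling. Spry1 read 479 and 594 in separate culture and 293 and 312 in co-culture, at -0.82 ± 0.16 (SE; limma, adjusted p = 0.0095), while Spry4, Spred1 and Dusp6 lay between -0.27 and -0.25. Apart from the receptors of Fgf7, Adm and Kitl and the genes 2-fold apart in a co-culture comparison, all receptor and regulator genes given here were named after their values were seen. Spry2, Spred2 and Dusp4 of the same families did not pass.

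Some cell type markers moved beside these genes. The summed signal of the 14 fibroblast and stellate cell markers was 36816 and 32846 in separate culture and 30490 and 29010 in co-culture, and 4 of the 9 tested fell, among them Des and S100a4, with 0 higher, where 3.83% of all genes were called lower. Vim, the brightest of the 14, read 16127.9 and 12613.9 in separate culture and 15183.5 and 13567.7 in co-culture. It weighs heavily in these sums. The summed signal of the 17 Kupffer cell markers was 1026 and 1192 in separate culture and 1296 and 1354 in co-culture, and 1 of 7 tested rose, where 2.55% of all genes did, C1qb at 0.96 ± 0.23 (SE; limma, adjusted p = 0.026). C1qb was read from a probe set with the suffix _x_at, and C1qa and C1qc lay under the floor in all 4 arrays. C1qb read 100 and 147 in separate culture and 264 and 211 in co-culture, a large part of the rise in the sum. Of the 17 markers summed, 10 lay at or under the floor in all 4 arrays, where values have no order. Hepatocyte markers above the floor had a median log2 ratio of -0.52 over 4 genes in wild type and -0.15 over 3 in knockout. The part of these markers in the growth factor results was not tested. In such mixtures fewer cells of a type and less RNA per cell cannot be told apart.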

How the data were processed

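Per the submitters' processing notes, the authors computed the deposited intensities, linear background-subtracted values per probe set, by MAS5 in Affymetrix Expression Console 1.4. Each group has 1 array. Means after trimming 2% were 497 to 498 in all 4 arrays, so the arrays share a scaling and a change in total RNA cannot be seen. Precision is limited by the 4 arrays. The cDNA was made from 20 ng of RNA, per the labels' protocols.

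Of 45037 probe sets, 34945 had 1 symbol, 932 several and 9160 none. A gene's brightest probe set by mean log2 signal was used, raised to the floor of 76.1. Genes above the floor in at least 1 array of a comparison entered it. Ratios within a genotype were counted at 2-fold with no test. Culture, with genotype as a block, and genotype, with culture as a block, were tested with limma 3.58.1 (lmFit, eBayes with trend, 1 residual degree of freedom, Benjamini-Hochberg over 10637 genes, R 4.3.3). The script was tested on simulated data. The members and lists were chosen with earlier results of these data known. All members are accounted for. Of listed genes, those 2-fold apart in a co-culture comparison or receptors of such members were to be named; others named were chosen after their values were seen. Alternatives were the floor (none, 2 times the median, or only genes reaching 4 times it), scaling between arrays, the choice of probe set and the variance trend.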

Additional observations from a re-analysis of the deposited data

Results flagged for a closer look

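For 6 members above the floor the co-culture change pointed in opposite directions in the genotypes, which with 1 array per group was not tested. The differences of the log2 ratios, knockout minus wild type, were -0.58 for Pgf, -0.55 for Pdgfc, -0.55 for Angpt2, -0.47 for Gas6, -0.24 for Hbegf and 0.23 for Pdgfa. All 6 lay within 2-fold. The same count was not made over all genes, so there is no background share to set beside these 6. No group had the 4 or more samples needed to look for an array far from the others.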

How the results depend on the processing

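No paired analysis was possible because the labels number no replicates, beyond the block by genotype that the limma fit for culture already holds, and with 1 array per group no replicate could be left out. Without a floor, 5 members were at least 2-fold higher and 2 lower in wild-type co-culture, 4 higher and 5 lower in knockout, 10 differed between genotypes in separate culture and 7 in co-culture, and for 11 the genotypes' changes differed, while 17.8% to 19.4% of all 18193 genes were then 2-fold apart in each pairwise comparison. Among genes reaching 4 times the floor, 1 member was 2-fold higher in wild type, beside 46 of 7857 genes. Limma called 2 lower there, Kitl and Vegfb, beside 634 of all 7987 genes. Adm did not reach this limit and left the comparison, and 0 of the remaining members differed between the genotypes' changes. With a common median, limma called 3 lower, Bdnf, Kitl and Vegfb, beside 1145 of all 10642 genes. The median log2 ratio of all genes in wild type moved there from -0.02 to -0.13. With the median over probe sets, 13 members lay above the floor, and Adm, Inhba, Gas6 and Hgf left the analysis untested. Of the rest, 0 were 2-fold lower in wild type, where 43 of 9681 genes were, and 0 differed between the genotypes' changes. Limma called 3 of them higher, Csf1, Fgf7 and Vegfa, beside 195 of all 9946 genes. Without the intensity trend limma called 1 higher, beside 33 of all 10637 genes. With the floor at 2 times the median, added after the data were seen, 1 member was 2-fold higher in wild type, beside 46 of 9218 genes. There 0 members differed between the genotypes' changes, and limma called Csf1 and not Adm, with 272 of all 9375 genes called higher. Over all genes limma called 678 for culture, 1422 with a common median, of which 19.5% against 40.0% were higher, and 45 without the trend. For genotype it called 3, against 92 with a common median, 102 among genes reaching 4 times the floor and 0 with quantile normalization. Of the 129 genes 2-fold apart in wild type 56.6% were higher, against 38.8% of 152 with a common median. Of the 21 genes 2-fold apart between knockout and wild type in separate culture 42.9% were higher. The share was 21.7% of 23 with quantile normalization and 22.2% of 27 with a common median. These are small, untested counts. Fgf7 and Kitl were called by limma under every alternative run, with adjusted p up to 0.030 and 0.049. For Fgf7 the separate arrays lay under the floor in every alternative with a floor, so its ratio there could only point up. Of 177 single ratios under an alternative, 5 moved by over 1.5-fold and 3 changed sign, none of them 2-fold in either: Angpt2 in knockout from -0.08 to 0.36 and Fgf1 in wild type from -0.26 to 0.09 with the median over probe sets, and Pdgfc in knockout from -0.05 to 0.01 with quantile normalization. A ratio with both arrays above the floors compared cannot change when only the floor or brightness limit does. Many of the 177 were therefore fixed in advance. Ratios that left an alternative, as those of Adm and Inhba did with the median over probe sets, were not counted.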
